A study of Flaveria robusta and Flaveria sonorensis and Flaveria ramosissima with 24 samples.

Results

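Of 29562 gene rows measured by RNA sequencing in leaves of 4 Flaveria species, 153 had clearly lower transcript abundance under low CO2 in both F. robusta and F. sonorensis. A gene was taken when, in each of these 2 species, every low CO2 library lay below every control library, the mean log2(TPM + 1) under low CO2 was at least 1.5 below that of the controls, and the control mean was at least 5 TPM (a measure of transcript abundance corrected for gene length and library size). The 153 genes were therefore selected on their measured values in F. robusta and F. sonorensis, and those values are a description only. Their control levels and responses in F. ramosissima and F. trinervia were not used in the selection, and the responses carry the tests below. The table did not pair its identifiers with gene names, so the genes are described by their levels and responses, with no function given.

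Flaveria is a genus of the daisy family known for the range of photosynthetic types among its species. F. robusta is a C3 plant, in which Rubisco fixes CO2 directly and also reacts with oxygen, which starts photorespiration, a costly recycling pathway that gains importance as CO2 falls. F. trinervia is a C4 plant, which first fixes CO2 with PEP carboxylase in mesophyll cells and releases it again around Rubisco in bundle sheath cells, and both F. sonorensis and F. ramosissima belong to the C3-C4 intermediates, which recapture part of the photorespired CO2.

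The 8 groups were low CO2 for 2 weeks and control in each of the 4 species, with 3 libraries each. All were newly expanded mature leaves of chamber-grown plants under a light intensity of 200 μmol m-2 s-1, at 22 °C and 70% humidity, with 16 h of light and 8 h of darkness. The labels set low CO2 at 100 and the control at 380, in a unit written as μmol m-2 s-1, which is not a unit of concentration. They gave neither plant age nor genotype, and did not state that replicate libraries came from separate plants, so the p-values measure the spread between these libraries, which may be technical. The leaf label could not be checked against marker genes, because the rows carried no names.

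The deposited TPM values summed to between 857693 and 930239 per library, and TPM keep no record of read depth. Over all genes with a mean of at least 1 TPM in a species, the log2 fold change of low CO2 against control had a median of −0.36 in F. robusta and −0.17 in F. sonorensis, beside 0.00 in F. ramosissima and −0.12 in F. trinervia. In F. robusta the 100 most abundant genes took 62.9 to 64.8% of all TPM in the low CO2 libraries, against 53.5 to 54.6% in the controls, and their part in the lower values of other genes was not tested. Low CO2 replicate 2 of F. trinervia stood apart from replicates 1 and 3, so the main F. trinervia results are given with and without it. It was singled out after its values were seen, so counts and p-values without it are descriptive.

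The summed abundance of the 153 genes shows the selection in TPM, which are relative to the whole library. In F. robusta they summed to 1376, 1187 and 1579 TPM in the low CO2 libraries, against 9538, 8794 and 9485 TPM in the controls. In F. sonorensis the sums were 1959.9, 2120.2 and 2207 TPM under low CO2, against 11439, 11615 and 11394 TPM in the controls. The sums of replicates were close within each group of these 2 species, and the groups were far apart, as the selection required. Single genes varied more, with a median control SD of 21.3% of the mean in F. robusta and 31.8% in F. sonorensis.

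**Figure D1:**
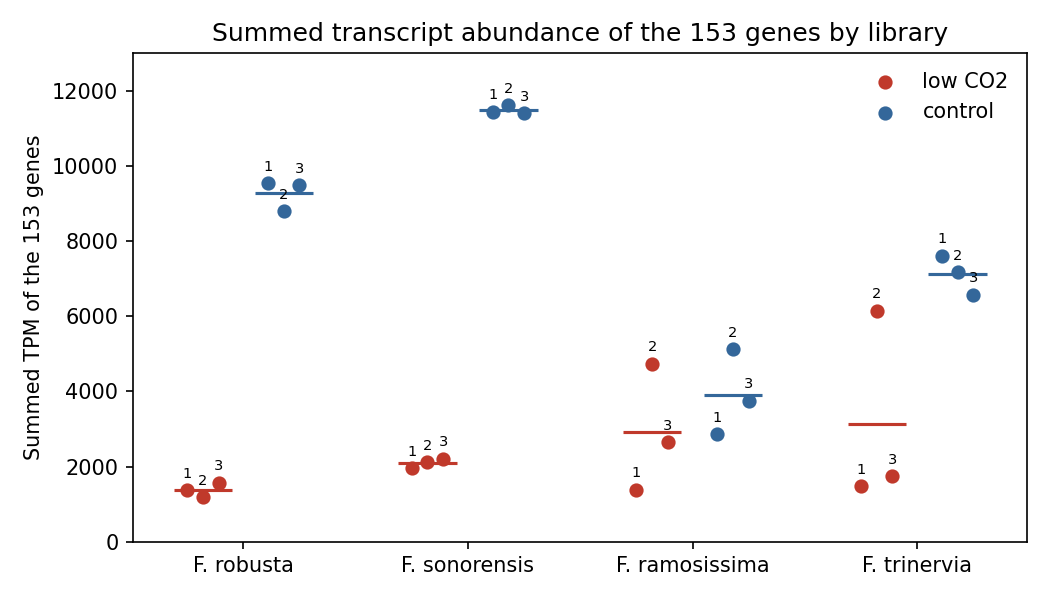
Summed TPM of the 153 genes (vertical axis, TPM) in each library, by species, with low CO2 in red left of control in blue; points are libraries and lines are means. F. trinervia low CO2 replicate 2 sits at 6152 TPM beside 1476 and 1741 TPM in the other two, and the low CO2 libraries of F. ramosissima spread between 1392 and 4741 TPM.

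Within F. robusta the log2 fold changes of the 153 genes ran from −7.18 to −1.51, with a median of −2.32, and within F. sonorensis they ran from −5.49 to −1.51, with a median of −2.12. The smaller of the 2 falls was the one in F. sonorensis for 92 genes and the one in F. robusta for 61. With limma, 153 of 153 passed as lower in F. robusta, where 41.5% of all 14194 genes tested passed as lower, and 151 of 153 in F. sonorensis, where 15.4% of 14436 did; the selection used these contrasts, so the counts are descriptive. Median mean abundance was 3.60 TPM under low CO2 and 24.9 TPM in the controls of F. robusta, and 5.61 TPM under low CO2 and 30.1 TPM in the controls of F. sonorensis. Under low CO2, 23 of the genes averaged below 1 TPM in F. robusta and 8 in F. sonorensis.

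Values were continuous across the limit. The 2 genes just inside it had smaller falls of −1.51 each, with −2.08 and −1.51 in F. robusta against −1.51 and −1.61 in F. sonorensis. The 2 genes just outside it had smaller falls of −1.49663 and −1.49611. Scaling also bears on membership: after median-of-ratios scaling, which moved the median change over all genes tested to 0.01 in F. robusta and 0.00 in F. sonorensis, 83 of the 153 still met the rule, with medians of −1.92 and −1.93 over the 153. Every one of the 153 kept a lower mean in both species under that scaling, the highest values being −1.07 in F. robusta and −1.33 in F. sonorensis.

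Gene27584 had the largest smaller fall of all. Its low CO2 libraries held 1.79, 0.73 and 1.40 TPM in F. robusta, against 45.7, 48.5 and 43.5 TPM in the controls. In F. sonorensis they held 1.10, 0.84 and 7.84 TPM, against 124.5, 224 and 108 TPM in the controls. The log2 fold changes were −4.37 and −5.49. In F. ramosissima this gene was barely present in either condition, at 0.21, 0.13 and 0.14 TPM under low CO2 and 0.84, 1.16 and 0.39 TPM in the controls, and it was too low to be tested. In F. trinervia it had 0.90, 4.30 and 1.60 TPM under low CO2 and 1.94, 2.98 and 2.30 TPM in the controls, groups that overlapped (log2 fold change −0.19 with an SE of 0.37, limma adjusted p = 0.846, and −0.60 with limma adjusted p = 0.126 without low CO2 replicate 2).

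The gene with the next largest smaller fall had a different pattern across species. It held at most 0.17 TPM in any low CO2 library of F. robusta and at most 0.18 TPM in any of F. sonorensis, and its control libraries varied widely, with 53.3, 42.0 and 1.75 TPM in F. robusta and 66.0, 9.41 and 14.7 TPM in F. sonorensis. Every one of the 6 F. ramosissima libraries listed it at 0. In F. trinervia it had 0.39, 0.91 and 0.00 TPM under low CO2, against 20.4, 20.8 and 7.70 TPM in the controls. It fell there too (log2 fold change −3.53 with an SE of 0.41, limma adjusted p = 0.0122), though the adjusted p ranged from 0.00266 to 0.0671 over the alternatives and exceeded 0.05 when control replicate 1 or low CO2 replicate 3 was left out.

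The control level of the 153 genes differed between species. Median control means were 7.85 TPM in F. ramosissima and 14.7 TPM in F. trinervia, beside the 24.9 TPM of F. robusta and 30.1 TPM of F. sonorensis. For all 7389 genes with a control mean of at least 5 TPM in both F. robusta and F. sonorensis, the medians were 9.44 TPM in F. ramosissima, 16.7 TPM in F. trinervia, 18.7 TPM in F. robusta and 25.7 TPM in F. sonorensis. A lower control level in F. ramosissima was thus general to genes passing that limit. Neither set had to reach any level in F. ramosissima or F. trinervia. Higher control levels in F. robusta and F. sonorensis are therefore partly built in by the selection, as are the shares and rankings given next. How reads of the 4 species were assigned to shared rows was not given, and levels across species carry that difference, so they were not tested.

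Of the 153, 124 had a lower control mean in F. ramosissima than in F. robusta (81.0%, against 75.8% of the 7389), and 97 had a lower one in F. trinervia than in F. robusta (63.4%, against 55.7%). The highest of the 4 control means was that of F. sonorensis for 73 genes, F. robusta for 42, F. trinervia for 27 and F. ramosissima for 11. The same order held among the 7389, with 52.2% for F. sonorensis, 22.0% for F. robusta, 16.8% for F. trinervia and 9.05% for F. ramosissima. Genes that were nearly silent in the other two species were more frequent among the 153: 21 had a control mean below 1 TPM in F. ramosissima (13.7%, against 5.06% of the 7389) and 20 in F. trinervia (13.1%, against 4.43%). In the controls, 38 genes in F. ramosissima and 32 in F. trinervia stood at or below the low CO2 means of both F. robusta and F. sonorensis. The share of the 7389 is not given here, so these counts are not read as particular to the 153.

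Abundance was concentrated in few of the genes. The 10 most abundant held 44.3% of the summed control TPM in F. robusta and 37.5% in F. sonorensis, beside 48.0% in F. ramosissima and 47.8% in F. trinervia. One gene led in both F. ramosissima and F. trinervia and came after only 2 others in F. robusta. It had 99.9, 45.3 and 90.8 TPM under low CO2 in F. robusta, against 394, 631 and 831 TPM in the controls. In F. ramosissima it had 62.9, 583 and 340.4 TPM under low CO2 and 303, 733 and 213 TPM in the controls, which overlapped (log2 fold change −0.64, limma adjusted p = 0.877). In F. trinervia it had 97.7, 405 and 170.5 TPM under low CO2, against 1041, 1139.7 and 818 TPM in the controls. The F. trinervia groups did not overlap, yet the difference missed the threshold with all libraries (log2 fold change −2.38 with an SE of 0.47, limma adjusted p = 0.0576) and passed it without low CO2 replicate 2 (−2.93, limma adjusted p = 0.00151).

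The first question beyond the selection was whether these genes were also lower under low CO2 in F. ramosissima. The median log2 fold change over the 153 was −0.43 (range −3.37 to 0.96), and 125 of the 153 had a negative value. Over the genes tested the share with a negative value was 84.1%, against 53.1% of the tested genes with at least 5 TPM in the controls of F. robusta and F. sonorensis. Of the genes, 126 had a mean of at least 1 TPM in F. ramosissima and were tested, and their median was also −0.43, against 0.00 over all 15899 genes tested and −0.02 over the 7004 tested genes with at least 5 TPM in both F. robusta and F. sonorensis controls. After median-of-ratios scaling the median over the 153 was −0.41. Changes on this scale were small for most of them: 89 of the 153 lay within 0.5 of 0, 24 were at −1 or lower, and 12 reached −1.5. The 153 included 27 that averaged below 1 TPM, whose changes the scale understates. Of the 126 tested, 9.52% were at −1.5 or lower, against 0.572% of all genes tested. In bulk leaf, fewer cells of a type and less RNA per cell cannot be told apart.

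**Figure D2:**
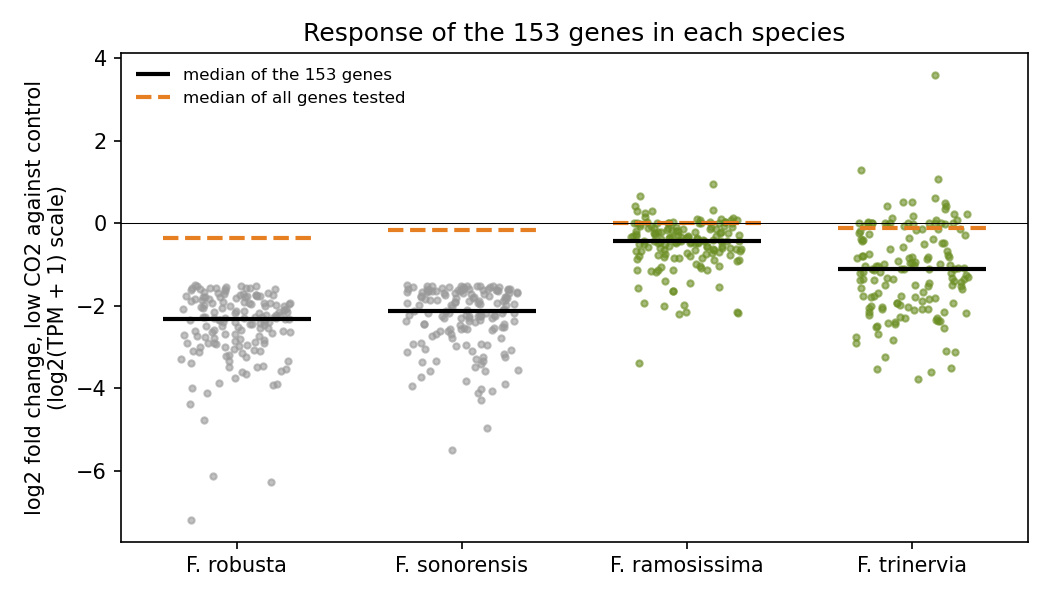
Log2 fold change of each of the 153 genes, low CO2 against control, on the log2(TPM + 1) scale (vertical axis), by species; points are genes, black lines their medians and dashed orange lines the medians of all genes tested. The values in F. robusta and F. sonorensis selected the genes; medians in F. ramosissima and F. trinervia were −0.43 and −1.11 over the 153.

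In F. ramosissima 6 of the 126 tested genes fell (4.76%), where 0.189% of all genes tested passed as lower, and 0.186% of those with at least 5 TPM in both F. robusta and F. sonorensis controls. None of the 126 passed as higher, where 0.101% of all genes did. At an unadjusted limma p below 0.05, 34 were lower and 0 higher, and the share over all genes is not given here. The count of 6 was fragile: leaving out control replicate 2 or 3, or low CO2 replicate 2 or 3, each gave 0 genes. Those fits had 27 to 55 genes at an unadjusted limma p below 0.05, for which the share over all genes is not given here. Leaving out low CO2 replicate 1 gave 1. Calls were lost over all genes tested too: 46 passed with all libraries, but 0, 2, 0 and 0 without control 2, control 3, low CO2 2 and low CO2 3. Without low CO2 replicate 1, 8 passed. All 3 low CO2 libraries lay below all 3 controls for 34 of the tested genes (27%), against 7.36% of all genes, and above all controls for 0, against 6.77%. The fall of the rule itself, without overlap and at −1.5 or lower, was met by 12 of the 126 (9.52%), against 0.509% of all genes.

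Libraries of one condition differed widely in F. ramosissima. The 153 genes summed to 1392, 4741 and 2649 TPM in the low CO2 libraries, against 2863, 5126 and 3760.2 TPM in the controls, so the groups overlapped. Low CO2 replicate 1 had 108 of the 153 genes below its lowest control (70.6%, against 43.6% of all genes tested), replicate 2 had 45 (29.4%, against 13.4%) and replicate 3 had 78 (51.0%, against 24.3%). The shares of the 153 include 27 genes too low to be tested, and the shares of all genes tested include no such genes. Each library thus had a larger share of the 153 than of all genes tested below the controls. The median residual SD was 0.53 on the log2 scale for the genes tested and 0.28 for all genes tested. This excess was not particular to F. ramosissima. The values were 0.32 against 0.22 in F. robusta, 0.43 against 0.25 in F. sonorensis and 0.79 against 0.29 in F. trinervia.

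The 6 genes that fell in F. ramosissima had log2 fold changes between −3.37 and −1.58 and control means between 9.84 and 127 TPM. The largest change belonged to the gene with the highest control mean in F. sonorensis. It had 5.82, 5.34 and 7.04 TPM under low CO2 in F. ramosissima, against 38.5, 120.5 and 79.8 TPM in the controls (log2 fold change −3.37 with an SE of 0.38, limma adjusted p = 0.0156). In F. sonorensis it had 51.8, 25.2 and 39.3 TPM under low CO2, against 535, 696 and 771 TPM in the controls. In F. trinervia its low CO2 libraries were split, with 28.8, 154.9 and 11.5 TPM against 84.4, 93.3 and 98.5 TPM in the controls (log2 fold change −1.26, limma adjusted p = 0.471). Without low CO2 replicate 2 it passed there as lower (−2.27, limma adjusted p = 0.00767).

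The genes with the next 2 highest control means in F. sonorensis fell in F. ramosissima as well. One of them had 5.14, 5.64 and 4.03 TPM under low CO2 in F. ramosissima, against 15.1, 29.5 and 25.0 TPM in the controls (log2 fold change −1.99 with an SE of 0.27, limma adjusted p = 0.0319). In F. trinervia this gene was abundant in both conditions, with 232, 333 and 186 TPM under low CO2 and 197, 338 and 222 TPM in the controls (log2 fold change −0.01 with an SE of 0.29, limma adjusted p = 0.990, and −0.24 with limma adjusted p = 0.555 without low CO2 replicate 2). The other had 12.8, 30.6 and 20.7 TPM under low CO2 in F. ramosissima, against 84.8, 79.9 and 73.7 TPM in the controls (log2 fold change −1.93 with an SE of 0.30, limma adjusted p = 0.0459). Every F. trinervia library listed this gene at 0.

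The smallest p-value in F. ramosissima belonged to a gene that was less abundant. It had 0.99, 1.67 and 1.69 TPM under low CO2, against 10.9, 10.2 and 8.43 TPM in the controls (log2 fold change −2.15 with an SE of 0.22, limma adjusted p = 0.0155). The 3 low CO2 libraries of F. sonorensis listed it at 0, and their controls had 6.15, 26.4 and 17.1 TPM. In F. trinervia it had 2.07, 4.28 and 0.60 TPM under low CO2, against 7.0, 15.2 and 9.19 TPM in the controls, with no overlap. This difference missed the threshold with all libraries (log2 fold change −1.89, limma adjusted p = 0.0891) and passed it without low CO2 replicate 2 (−2.31, limma adjusted p = 0.00930). The 2 remaining genes that fell in F. ramosissima had log2 fold changes of −1.58 (limma adjusted p = 0.0218) and −1.99 (limma adjusted p = 0.0286). Their low CO2 libraries held 29.3, 33.6 and 26.9 TPM against 80.3, 94.6 and 99.4 TPM in the controls for the first gene. For the second gene they held 21.9, 43.2 and 30.9 TPM against 107.6, 151 and 122 TPM in the controls.

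Gene26231 had the highest log2 fold change in F. ramosissima of the genes tested there. Its low CO2 libraries held 80.8, 363 and 236 TPM, and its controls 64.5, 130.02 and 111 TPM, so replicate 1 lay within the control range (log2 fold change 0.96 with an SE of 0.51, limma adjusted p = 0.623). In F. robusta it had 5.09, 4.17 and 4.08 TPM under low CO2, against 19.9, 26.8 and 29.2 TPM in the controls. In F. sonorensis it had 2.09, 5.14 and 4.70 TPM under low CO2, against 19.9, 36.8 and 27.1 TPM in the controls. In F. trinervia it again depended on 1 library, with 28.1, 325 and 25.9 TPM under low CO2 and 256, 150 and 183 TPM in the controls. The F. trinervia difference was −1.60 with all libraries (SE 0.89, limma adjusted p = 0.414) and −2.78 without low CO2 replicate 2 (limma adjusted p = 0.00130).

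The second question was the same one in F. trinervia, the C4 species. The median log2 fold change over the 153 was −1.11 (range −3.77 to 3.58), and 125 had a negative value. Over the genes tested the share with a negative value was 88.8%, against 63.2% of all genes tested and 67.5% of those with at least 5 TPM in both F. robusta and F. sonorensis controls. Of the genes, 134 had a mean of at least 1 TPM and were tested, with a median of −1.28, against −0.12 over all 13873 genes tested and −0.15 over the 7074 tested genes with at least 5 TPM in both F. robusta and F. sonorensis controls. Median-of-ratios scaling gave −1.001 for the 153 genes and −0.01 for all genes tested. Of the 153, 85 were at −1 or lower, 55 were at −1.5 or lower, 42 lay within 0.5 of 0 and 3 were at 1 or higher. Without low CO2 replicate 2, the median over the 153 was −1.69, 105 were at −1 or lower and 88 at −1.5 or lower.

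In F. trinervia 16 of the 134 tested genes fell (11.9%), where 1.41% of all genes tested passed as lower, and 1.12% of those with at least 5 TPM in both F. robusta and F. sonorensis controls. None passed as higher, where 0.18% of all genes did. At an unadjusted limma p below 0.05, 69 were lower and 3 higher, and the share over all genes is not given here. All low CO2 libraries lay below all controls for 53 of the 134 (39.6%), against 14.6% of all genes, and above all controls for 3 (2.24%), against 6.7%. The fall of the rule was met by 40 of them (29.9%), against 2.6% of all genes. The count of 16 dropped to 0 when control replicate 1 was left out (55 at an unadjusted limma p below 0.05), and to 6 when control replicate 3 was left out. It dropped to 7 or 2 when the library left out was replicate 1 or replicate 3 of low CO2. Counts over all genes in these fits are not given here.

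**Figure D3:**
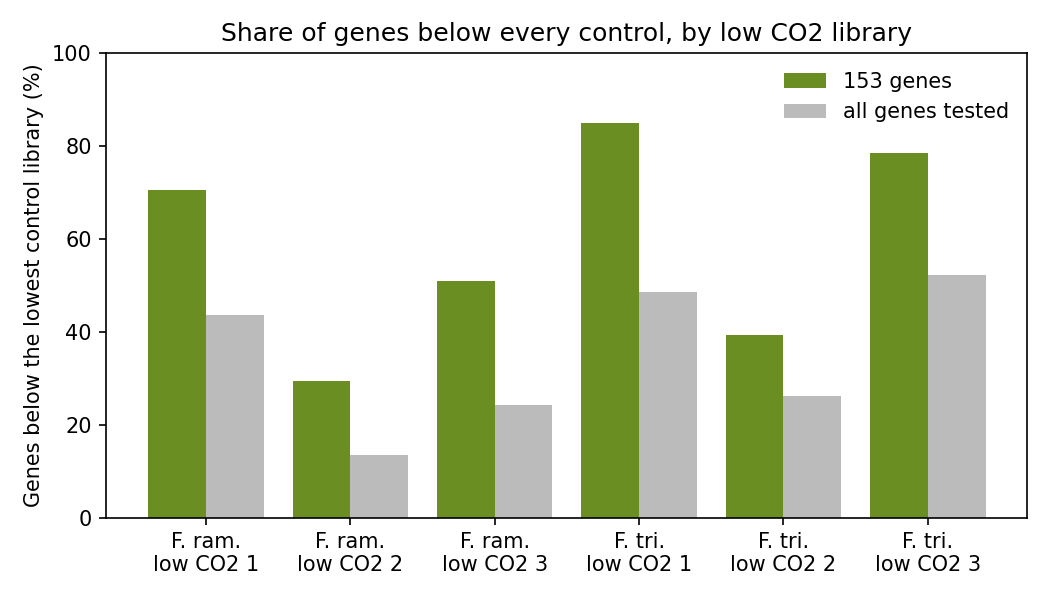
Share of genes below the lowest control library (vertical axis, %) in each low CO2 library of F. ramosissima and F. trinervia, for the 153 genes (green) and all genes tested (grey). In every library the share was larger for the 153 genes, from 29.4% in F. ramosissima replicate 2 to 85.0% in F. trinervia replicate 1. The 153 include genes too low to be tested, and the grey bars do not.

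Low CO2 replicate 2 of F. trinervia differed from the other two in most of these genes. The 153 summed to 1476, 6152 and 1741 TPM in the low CO2 libraries, against 7609, 7165 and 6569 TPM in the controls. Replicate 1 had 130 of the 153 below its lowest control (85.0%, against 48.6% of all genes tested) and replicate 3 had 120 (78.4%, against 52.1%), while replicate 2 had 60 (39.2%, against 26.2%). The shares of the 153 include 19 genes too low to be tested, and the shares of all genes tested include no such genes. Replicates 1 and 3 were both below the controls for 119 genes, and replicate 2 was not below them for 64 of these. Replicate 2 lay nearer the control mean than the mean of replicates 1 and 3 did for 105 of the 134 tested genes (78.4%), against 64.7% of all genes tested. What set this library apart was not tested.

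Without low CO2 replicate 2, 104 of 131 tested genes passed as lower in F. trinervia (79.4%), where 12.6% of all genes tested and 13.5% of those with at least 5 TPM in both F. robusta and F. sonorensis controls did. The library was picked after its values were seen, so these counts are descriptive. On these 5 libraries 2 passed as higher (1.53%), where 2.81% of all genes did. The median over the tested genes was then −1.92, against −0.22 over all genes tested. Every one of the 16 genes that fell with all libraries also passed without replicate 2. The fall of the rule was met by 88 of the 131 in these libraries (67.2%), against 5.26% of all genes. The 104 genes had log2 fold changes between −4.98 and −0.79 in that fit.

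Among the 16, the lowest log2 fold change was that of Gene20862. Its low CO2 libraries held 16.5, 66.0 and 8.29 TPM, against 363, 209 and 360.4 TPM in the controls (log2 fold change −3.77 with an SE of 0.66, limma adjusted p = 0.0427). The call passed narrowly, with an adjusted p between 0.000837 and 0.180 over the alternatives, the lowest without low CO2 replicate 2, where the log2 fold change was −4.57, and it exceeded 0.05 when any other F. trinervia library was left out. In F. robusta the gene had 2.57, 1.62 and 1.84 TPM under low CO2, against 17.8, 29.0 and 27.0 TPM in the controls. In F. sonorensis it had 5.92, 11.3 and 7.22 TPM under low CO2, against 30.5, 87.1 and 74.5 TPM in the controls. Its control values were thus higher in F. trinervia than in both selecting species. In F. ramosissima it had 13.5, 59.9 and 29.4 TPM under low CO2 and 28.0, 53.5 and 164 TPM in the controls, which overlapped (log2 fold change −1.09 with an SE of 0.67, limma adjusted p = 0.689).

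The 16 genes had log2 fold changes between −3.77 and −1.19 and control means between 10.9 and 311 TPM in F. trinervia. The one with the smallest p-value had low CO2 libraries close to each other, replicate 2 included. It held 47.5, 49.4 and 42.2 TPM under low CO2, against 202, 163 and 248 TPM in the controls (log2 fold change −2.10 with an SE of 0.21, limma adjusted p = 0.00615). In F. robusta it had 13.1, 9.40 and 7.82 TPM under low CO2, against 50.8, 55.4 and 56.6 TPM in the controls. In F. sonorensis it had 39.0, 48.9 and 35.1 TPM under low CO2, against 163, 121 and 224 TPM in the controls. In F. ramosissima it had 10, 17.3 and 13.3 TPM under low CO2 and 8.30, 13.2 and 16.1 TPM in the controls (log2 fold change 0.12 with an SE of 0.29, limma adjusted p = 0.953). The low CO2 and control groups of this gene were separate in every species except F. ramosissima.

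Other abundant genes were far lower in 2 of the 3 low CO2 libraries of F. trinervia. The gene with the second-lowest log2 fold change there had 7.02, 138 and 7.23 TPM under low CO2, against 206, 328 and 244 TPM in the controls. Its difference missed the threshold with all libraries (log2 fold change −3.61 with an SE of 1.02, limma adjusted p = 0.129) and passed without replicate 2 (−4.98, limma adjusted p = 0.000154). The gene with the second-highest control mean in both F. ramosissima and F. trinervia had 21.5, 479 and 19.0 TPM under low CO2 in F. trinervia, against 298, 487 and 172 TPM in the controls. Replicate 2 of this gene lay inside the control range (log2 fold change −2.29 with an SE of 1.15, limma adjusted p = 0.363), and without it the change was −3.79 (limma adjusted p = 0.00221). In F. ramosissima the same gene varied widely within each condition, with 86.7, 924 and 332 TPM under low CO2 and 167, 637 and 231 TPM in the controls (log2 fold change 0.04, limma adjusted p = 0.999).

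Gene01864 stood at the other end, with the highest log2 fold change in F. trinervia. Its low CO2 libraries held 35.1, 1.31 and 32.0 TPM there, and its controls 0.04, 0.13 and 0.36 TPM, so the groups did not overlap, although replicate 2 was much lower than replicates 1 and 3. The difference missed the threshold with all libraries (log2 fold change 3.58 with an SE of 0.96, limma adjusted p = 0.118), and without replicate 2 the gene passed as higher (4.88, SE 0.19, limma adjusted p = 0.000104). In F. robusta it had 0.27, 0.54 and 0.71 TPM under low CO2, against 16.3, 5.17 and 15.0 TPM in the controls. In F. sonorensis it had 22.1, 4.09 and 17.1 TPM under low CO2, against 154, 229 and 273 TPM in the controls. In F. ramosissima it never exceeded 0.49 TPM and was not tested.

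The gene with the second-highest log2 fold change in F. trinervia was low in abundance throughout, with 0.28, 2.66 and 3.06 TPM under low CO2 and 0.08, 0.15 and 0.04 TPM in the controls (log2 fold change 1.29, limma adjusted p = 0.177). The third had 6.23, 16.4 and 19.4 TPM under low CO2 and 5.88, 6.02 and 4.66 TPM in the controls (log2 fold change 1.08 with an SE of 0.38, limma adjusted p = 0.205). For both, every low CO2 library lay above every control, though narrowly in replicate 1. The other gene that passed as higher without low CO2 replicate 2 had 9.06, 2.10 and 10.4 TPM under low CO2 and 3.02, 5.65 and 3.60 TPM in the controls; it was singled out after its values were seen (log2 fold change without replicate 2 of 1.11, limma adjusted p = 0.0277).

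**Figure D4:**
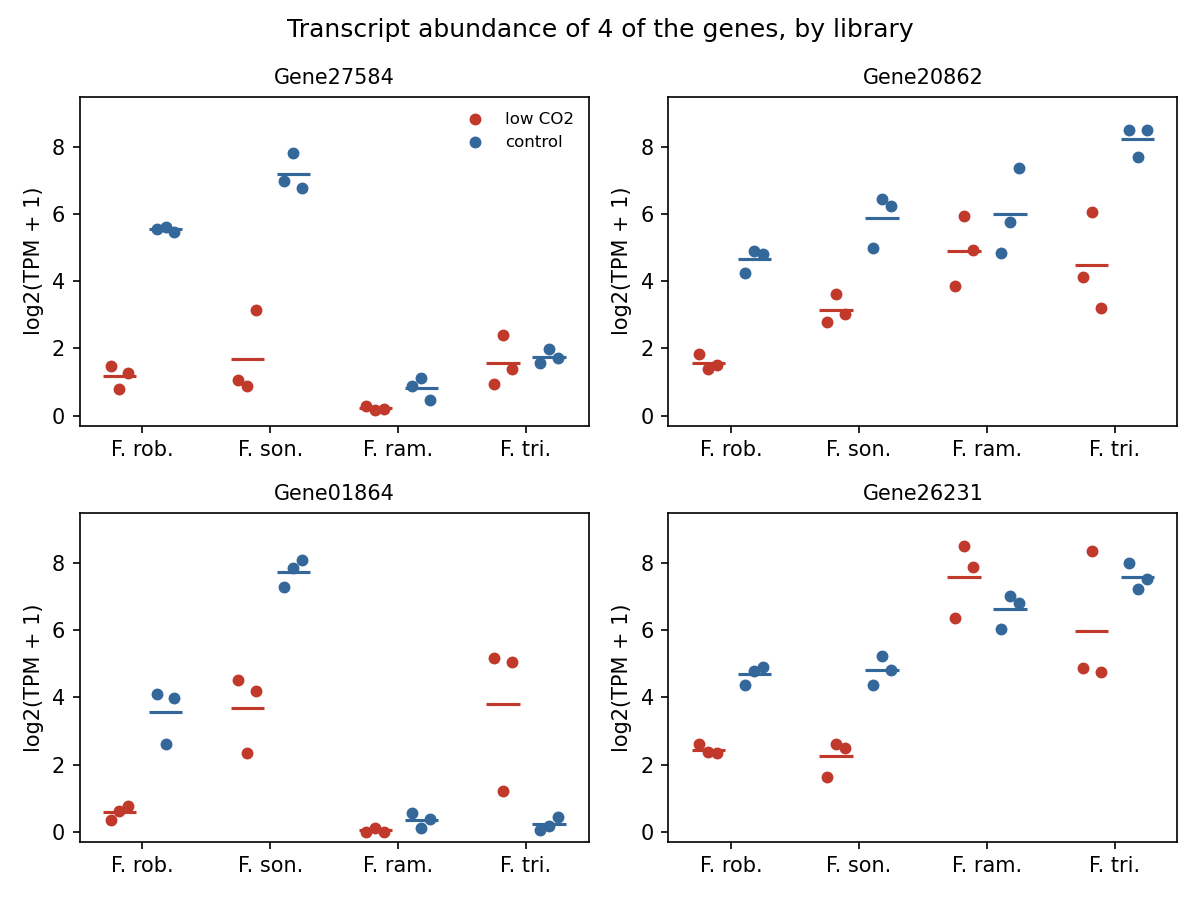
Transcript abundance of Gene27584, Gene20862, Gene01864 and Gene26231 as log2(TPM + 1) (vertical axis) in each library, by species, with low CO2 in red left of control in blue; points are libraries and lines are means. F. trinervia low CO2 replicate 2, the middle red point, lies nearest the controls in Gene20862 (66.0 TPM), Gene01864 (1.31 TPM) and Gene26231 (325 TPM).

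The responses of F. trinervia and F. ramosissima were then compared with each other, over the 118 genes tested in both. The response in F. trinervia minus that in F. ramosissima had a median of −0.88 over these genes, against −0.13 over all 11059 genes tested, and 91 of the 118 had a lower response in F. trinervia (77.1%, against 61.7% of all genes). The difference passed for 1 gene as lower in F. trinervia (0.847%), where 0.127% of all genes did, and for none as higher, where 0.0543% did. At an unadjusted limma p below 0.05, 27 genes were lower in F. trinervia (22.9%, against 7.77% of all genes). By the same measure 7 were higher, for which the share over all genes is not given here. The gene that passed was the one with the smallest p-value in F. trinervia, with a difference of −2.22 (SE 0.37, limma adjusted p = 0.0378, from 0.0126 to 0.146 over the alternatives). The call was lost at a pseudocount of 0.1 and when control 1, control 2, low CO2 2 or low CO2 3 of F. ramosissima, or control 1, control 3, low CO2 1 or low CO2 3 of F. trinervia, was left out, and 5 genes passed without control 2 of F. trinervia.

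Without low CO2 replicate 2 of F. trinervia, 33 of 117 genes passed as lower in F. trinervia (28.2%), where 2.62% of all genes did, and 2 as higher (1.71%), where 1.15% did. The median difference was then −1.48, against −0.23 over all genes tested. The gene with the largest absolute difference had −3.19 with all libraries (SE 1.20, limma adjusted p = 0.328) and −4.42 without replicate 2 (limma adjusted p = 0.00884). The next had −2.89 with all libraries (limma adjusted p = 0.190) and −3.49 without replicate 2 (limma adjusted p = 0.0287). The gene that fell in F. ramosissima while abundant in both conditions of F. trinervia had a difference of 1.97 with all libraries (SE 0.42, limma adjusted p = 0.0832), and it passed as higher in F. trinervia without replicate 2 (1.75, limma adjusted p = 0.0371). These comparisons left out a library of F. trinervia only. Low CO2 replicate 2 of F. ramosissima, also the highest of its group by sum (4741 TPM, beside 1392 and 2649 TPM), was kept. Without that F. ramosissima library, the median over the genes tested there was −0.74, against −0.43 with all libraries.

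**Figure D5:**
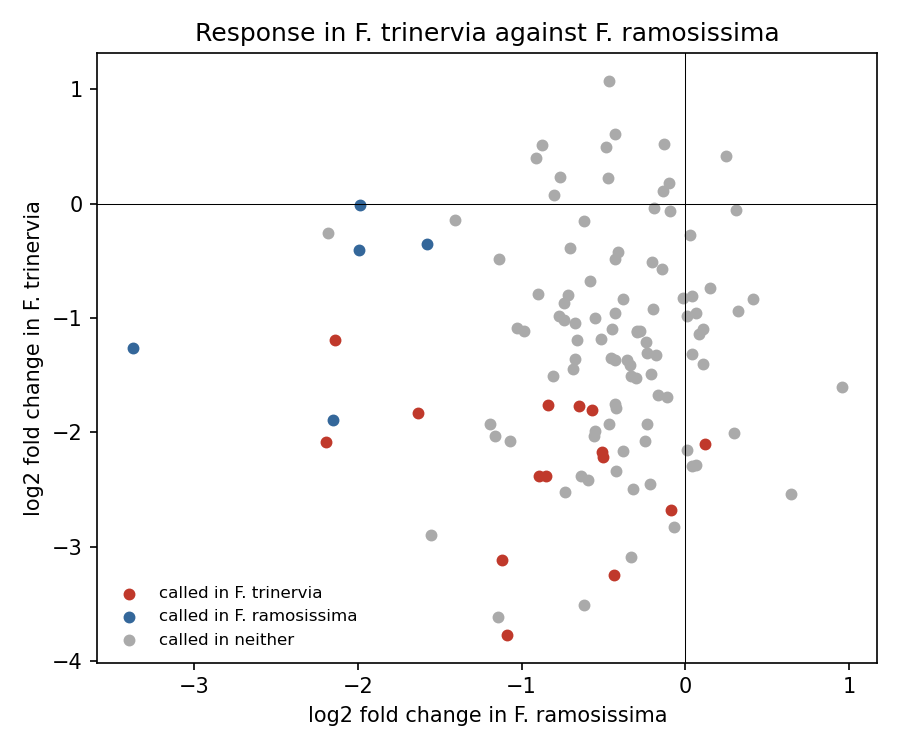
Log2 fold change in F. trinervia (vertical axis) against that in F. ramosissima (horizontal axis), both low CO2 against control, for the genes tested in both; red points passed the limma threshold in F. trinervia, blue in F. ramosissima, grey in neither. No gene passed in both species, and across the 118 genes Pearson's r was 0.025 and Spearman's rho 0.042.

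The sizes of the 2 responses that the selection did not use were compared gene by gene. Over the 118 genes tested in both F. ramosissima and F. trinervia, Pearson's r between their log2 fold changes was 0.025 and Spearman's rho 0.042, and once F. trinervia low CO2 replicate 2 was left out they were −0.099 and −0.094 over 117 genes. These are correlations across genes, which share libraries and are not independent replicates. No gene passed as lower in both species with all libraries, where 0.0181% of the genes tested in both did (2 of 11059). Without that library 2 of the 117 did (1.71%), where 0.0544% of all genes did (6 of 11025).

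By the fall of the rule alone (no overlap and a log2 fold change of −1.5 or lower), 4 of the 153 genes met it in both F. ramosissima and F. trinervia (2.61%), and so in all 4 species, against 0.122% of the 7389 genes with at least 5 TPM in both F. robusta and F. sonorensis controls. In F. trinervia but not F. ramosissima 36 met it (23.5%, against 1.94%), in F. ramosissima but not F. trinervia 8 did (5.23%, against 0.298%), and 105 met it in neither. Without low CO2 replicate 2 of F. trinervia the 3 counts were 5 in both (3.27%, against 0.135%), 83 in F. trinervia alone (54.2%, against 4.47%) and 7 in F. ramosissima alone (4.58%, against 0.284%). Of the 4, one was the gene with the smallest p-value in F. ramosissima, described above. A second had 55.3, 96.8 and 60.7 TPM under low CO2 in F. ramosissima, against 244, 201 and 172 TPM in the controls (log2 fold change −1.55, limma adjusted p = 0.0597). In F. trinervia it had 18.9, 169 and 21.4 TPM under low CO2, against 291, 289 and 369 TPM in the controls (log2 fold change −2.90, limma adjusted p = 0.108), and without low CO2 replicate 2 the change was −3.90 (limma adjusted p = 0.000158). Only 2 others had higher control means in both species, and it was the most abundant of the 4.

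The other two of the 4 passed the test in F. trinervia. One had 25.0, 25.0 and 33.5 TPM under low CO2 there, against 81.4, 96.2 and 219 TPM in the controls (log2 fold change −2.08 with an SE of 0.37, limma adjusted p = 0.0449). In F. ramosissima it had 1.98, 3.64 and 2.90 TPM under low CO2, against 8.04, 9.95 and 51.0 TPM in the controls (log2 fold change −2.19, limma adjusted p = 0.222). The last had 4.86, 4.27 and 4.13 TPM under low CO2 in F. trinervia, against 20.6, 17.4 and 16.8 TPM in the controls (log2 fold change −1.83 with an SE of 0.18, limma adjusted p = 0.00615). In F. ramosissima its low CO2 libraries held 0.65, 1.72 and 1.03 TPM, against 5.86, 3.09 and 8.69 TPM in the controls (log2 fold change −1.63, limma adjusted p = 0.131). For all 4 genes the low CO2 libraries lay below the controls in every species.

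The remaining genes outside the tests were low or absent in one species. In F. ramosissima 27 of the 153 averaged below 1 TPM over the 6 libraries, 6 of them listed at 0 in every library. In F. trinervia 19 averaged below 1 TPM, 10 of them listed at 0 in every library. A row listed at 0 may reflect the sequences to which reads were assigned as well as the leaf, and these cannot be told apart here. The gene with the third largest smaller fall was among those below 1 TPM in both species, with log2 fold changes of −6.27 in F. robusta and −3.88 in F. sonorensis.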

How the data were processed

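Newly expanded mature leaves of 4 Flaveria species were sequenced as 150 bp paired reads, with 3 low CO2 and 3 control libraries per species (24 in all). The deposited TPM were made by the authors; the submitters' processing notes name RSEM and edgeR with no role, and the aligner, genome build and the assignment of 4 species to shared rows were not given in the sources used here. All 24 columns were matched to samples by their labels, and 807 of 29562 rows were 0 throughout. TPM keep no depth, so no counting interval was computed.

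The 153 genes and the rule were chosen with earlier results of these data known; fewer than the cap of 200 genes passed. For each species, log2(TPM + 1) of genes with a mean of at least 1 TPM was fitted with limma 3.58.1 (R 4.3.3; trended prior, Benjamini-Hochberg adjustment over all genes tested, threshold 0.05), low CO2 minus control; responses of F. trinervia and F. ramosissima were compared by an interaction over genes passing in both. With 3 against 3 libraries the smallest exact permutation p is 0.1, so limma was used. Fold changes on this scale understate changes of low genes. The fits were tested on simulated data. Figures used Python 3.11.15 and matplotlib 3.10.9.

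The genes singled out in the text had the largest smaller fall, the highest control means, the lowest or highest responses in F. ramosissima or F. trinervia, the largest differences in response, or lay nearest the limit; others are said to be chosen after their values were seen or belong to a count. As the rows carry no names, 4 identifiers are printed. Alternatives were a pseudocount of 0.1, no filter, a minimum of 5 TPM, quantile normalization, median-of-ratios scaling, a robust prior, a prior without trend, a replicate block and leaving out each library.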

Additional observations from a re-analysis of the deposited data

Results flagged for a closer look

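For 1 gene, the one with the smallest p-value in F. trinervia, the responses of 2 species under the same treatment differed by limma's test of the difference itself: the log2 fold change was −2.10 in F. trinervia and 0.12 in F. ramosissima, a difference of −2.22 (SE 0.37, limma adjusted p = 0.0378). All 3 low CO2 libraries of F. trinervia were lower than all 3 controls, and in F. ramosissima the groups overlapped.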

How the results depend on the processing

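The median log2 fold changes kept their sign under every alternative, between −0.74 and −0.21 in F. ramosissima and between −1.92 and −0.89 in F. trinervia. Counts of genes passing the limma threshold depended more on the processing, and the cause was not tested. In F. ramosissima the 6 genes became 0 with no filter on low values (42 at an unadjusted limma p below 0.05), and 0 to 6 when a library was left out. Over all genes tested there, 46 passed in the main fit, 3 with no filter, and 0 to 46 when a library was left out. In F. trinervia the 16 became 10 with no filter, 10 after quantile normalization, and 0 to 106 when a library was left out. The highest count, without low CO2 replicate 2, held 104 lower and 2 higher genes. For the difference in response the 1 gene became 0 at a pseudocount of 0.1 (31 at an unadjusted p below 0.05), 3 with no filter, 4 after median-of-ratios scaling, 3 after quantile normalization, and 0 to 35 when a library was left out. The 35, without F. trinervia low CO2 replicate 2, were 33 lower and 2 higher genes. Of the 153 genes, 83 met the selection after median-of-ratios scaling and 79 after quantile normalization. The replicate block gave 13 genes in F. ramosissima, where 206 of all 15899 genes tested passed in either direction, against 46 without the block. It gave 1 gene in F. trinervia and 2 for the difference, for which counts over all genes are not given here. Same-numbered libraries correlated at 0.34, 0.47 and 0.10 in F. ramosissima and −0.11, 0.08 and 0.14 in F. trinervia. The numbers were therefore not taken to pair the libraries, although every F. ramosissima library correlated best with its own number.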
